A study of Homo sapiens with 24 samples.

Results

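A set of 9 genes of the NRF2 antioxidant response was followed in PANC-1 cells, a human line established from a carcinoma of the pancreatic duct. They were chosen by name from the 54583 genes of the count table: NFE2L2, which encodes NRF2, its inhibitor KEAP1, and the target genes NQO1, HMOX1, GCLM, GCLC, SRXN1, SLC7A11 and TXN, and all 9 were found. For 6 h, plates received the solvent DMSO, CID661578 at 40 µM or cercosporamide at 5 µM, with 4 biological replicates each, and both compounds were studied for their action on MNK2, a kinase that works at the cap-binding complex of translation. Total cytosolic RNA and polysome-associated RNA, the part of the same lysate bound to more than 3 ribosomes, were sequenced from each of the 12 plates, which gave 24 libraries. All groups shared the line and the exposure time, and the doses of the 2 compounds differed. The line is a single tumour line, the sample descriptions name RPMI as its medium and the methods name DMEM, and the RNA is cytosolic, so nuclear transcripts were not measured.

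NRF2 is a transcription factor that pairs with small MAF proteins on antioxidant response elements and drives genes for quinone reduction, glutathione synthesis, the thioredoxin system and heme breakdown. KEAP1 is the substrate adaptor of a CUL3 ubiquitin ligase. It binds NRF2 and has it degraded until oxidants or electrophiles modify its cysteines, so NRF2 activity is largely set at the level of the protein, and the mRNA of its targets is the usual readout.

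The core of the antioxidant response element, read as TGACNNNGC on either strand, was looked for from 250 bases before to 50 bases after each annotated start in RefSeq (GRCh38.p14). The table held 9 such windows for 7 of the genes, with 2 each for NFE2L2 and KEAP1. The core was in the window of GCLM and, at 2 places, in one window of KEAP1. The 3 matches are shown because they have the letters that NRF2 is known to bind, and binding itself was not measured. Each is written along the coding strand with the core, or its reverse complement, in capitals:
GCLM, chr1:93909446-93909474, reverse complement of the core from base -34: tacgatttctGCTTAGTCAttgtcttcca
KEAP1, chr19:10502807-10502835, core from base -54: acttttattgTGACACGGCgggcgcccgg
KEAP1, chr19:10502784-10502812, reverse complement of the core from base -31: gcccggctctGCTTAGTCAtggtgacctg
Over all promoter windows of the table, 4687 of 35116 (13.3%) held the core. The windows of NFE2L2, NQO1, GCLC, SRXN1 and TXN and the other KEAP1 window did not have these letters. HMOX1 and SLC7A11 had no window, and sequence outside the windows was not searched, so a gene without a match here may still have an element.

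The polysome library of cercosporamide replicate 4 was shallow, with 1592459 reads on genes, where every other library had between 9268041 and 12184749. Every pair of libraries of a group differed by more than sampling noise (lowest chi-square per degree of freedom 14.9). Of 7 genes fixed as ductal markers, KRT8, KRT18 and KRT19 were high (679.7 to 7959 CPM, counts scaled to a common library size, in total RNA), KRT7, SOX9 and EPCAM were low (5.19 to 38.31 CPM), and CDH1 was near 0. The mesenchymal gene VIM was high (770.5 to 1225 CPM), CDH2 was low (5.66 to 13.6 CPM) and FN1 was near 0 (at most 0.20 CPM). Of 8 acinar, endocrine, leukocyte and endothelial markers, PRSS1, INS, CHGA and PTPRC had no reads, and CPA1, CELA3A, GCG and PECAM1 had at most 1.30 CPM in total RNA. The table has no spike-in, so every change is relative to the other genes of a library, and fewer cells and less RNA per cell cannot be told apart. Replicate 3 stood apart under all 3 treatments in several of the genes below, so values without it are given beside the results that it moved.

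All 9 genes had reads in every library and were among the 12058 genes tested. The fewest reads of each came from the shallow cercosporamide library, from 9 for GCLM (95% Poisson interval 4.12 to 17.1, counting error only) and 11 for SRXN1 to 958 for NQO1. TXN was the most abundant per transcript length in total RNA with DMSO, at 1183 ± 445 RPKM (CPM per kilobase of transcript, SD, n = 4), followed by NQO1 at 127 ± 10.9 RPKM. TXN encodes thioredoxin, a small protein that reduces disulfides, and NQO1 encodes a quinone reductase that is a classical NRF2 target. KEAP1 (40.8 ± 10.2), HMOX1 (22.1 ± 6.54) and NFE2L2 (18.3 ± 4.41 RPKM) came next, and KEAP1 overlapped with HMOX1 and HMOX1 with NFE2L2 between replicates. SRXN1 was at 4.83 ± 2.23 RPKM, and GCLC (1.74 ± 0.572), GCLM (1.49 ± 0.527) and SLC7A11 (1.39 ± 1.195 RPKM) had overlapping levels at the end of the order. The order in polysome-associated RNA with DMSO was the same for the first 7 genes, from 497.4 ± 167 RPKM for TXN to 2.78 ± 0.658 for GCLC, with SLC7A11 (2.33 ± 2.34) and GCLM (1.81 ± 0.201) after it.

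**Figure D1:**
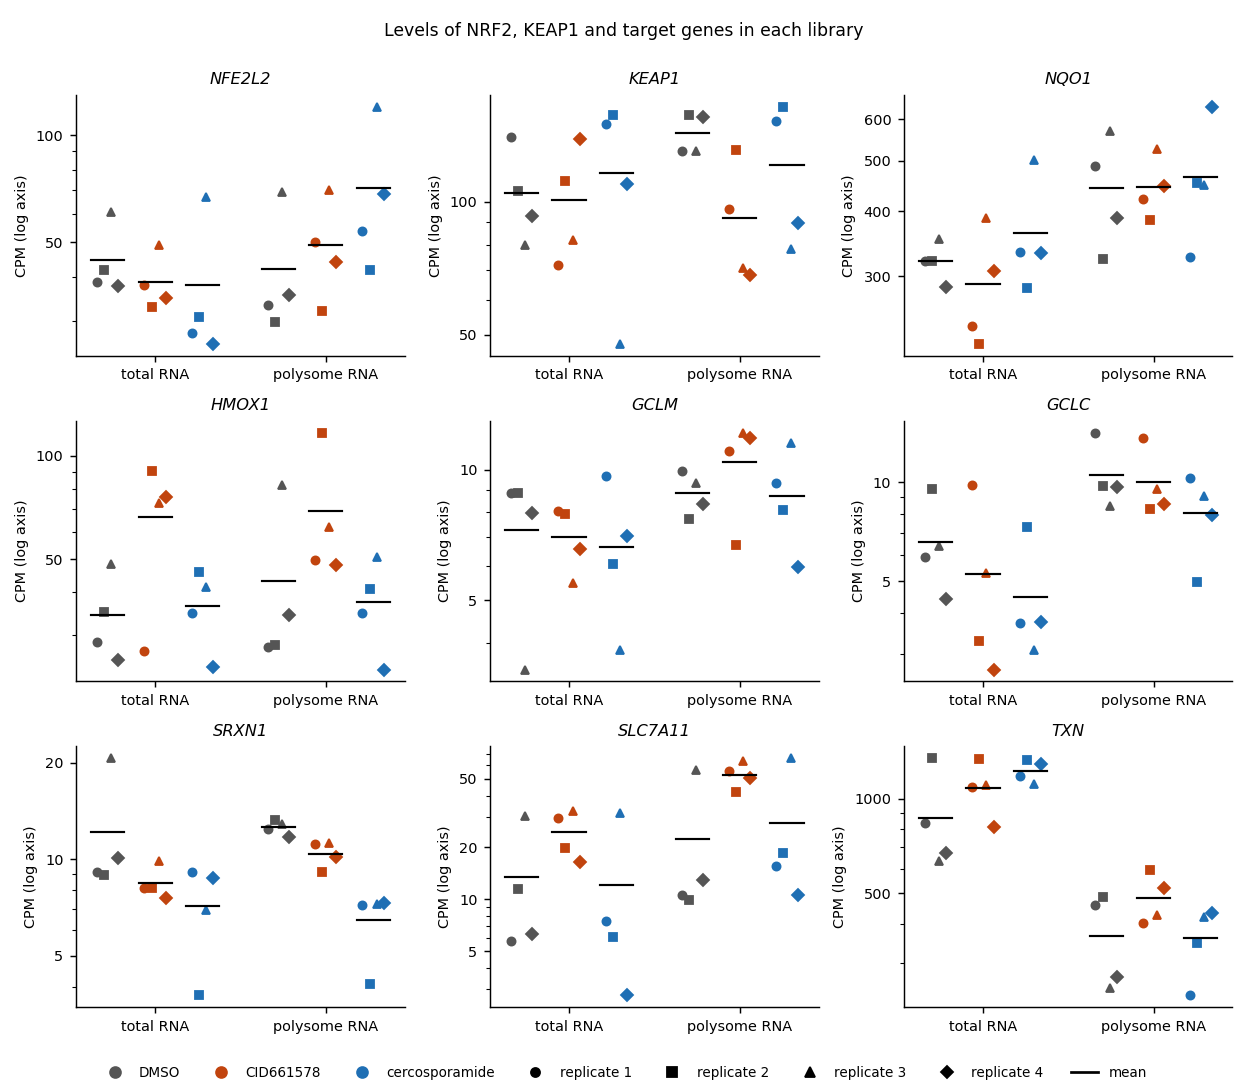
Level of each gene in the 24 libraries in CPM on log axes, by fraction and treatment, with 1 symbol per replicate and a line at the mean of 4. SLC7A11 was between 41.9 and 63.8 CPM in polysome-associated RNA with CID661578, and replicate 3 (triangles) was at 56.3 CPM with DMSO and 65.8 CPM with cercosporamide.

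The share of each mRNA on polysomes differed between the genes before any treatment. The log2 ratio of polysome to total CPM with DMSO was -1.25 ± 0.262 for TXN (SD, n = 4), and 9.36% of the genes tested had a lower ratio. TXN has the shortest transcript of the 9 (737 nt against 1554 nt or more). The other 8 genes lay nearer the median of all genes (-0.01) or above it. GCLC and SLC7A11 were highest, at 0.71 ± 0.587 and 0.66 ± 0.584, with 81.7% and 80.2% of genes below them. KEAP1 was at 0.48, NQO1 at 0.44, GCLM at 0.37, HMOX1 at 0.21 and SRXN1 at 0.14. NFE2L2 itself was at -0.15 ± 0.281, with 43.5% of genes below. These ratios place genes against each other only within these libraries, because each fraction was scaled to its own total.

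Polysome-associated NFE2L2 rose with cercosporamide on every plate, while its total RNA did not. NFE2L2 lies on chromosome 2 (177230303 to 177264727, minus strand). In polysome-associated RNA it was at 33.3, 29.8, 69.2 and 35.6 CPM in DMSO replicates 1 to 4, at 50.2, 32.1, 70.3 and 43.97 CPM with CID661578, and at 53.7, 41.9, 120.1 and 68.2 CPM with cercosporamide. Replicate 3 was highest in each group, so the groups overlapped, yet within each replicate number the cercosporamide library was above the DMSO library, by 0.49 to 0.94 on the log2 scale. The rise with cercosporamide was 0.72 (SE 0.176, 1.65-fold, adjusted p = 0.00649, edgeR quasi-likelihood test), and the change with CID661578 was 0.26 (SE 0.174, adjusted p = 0.430). Without replicate 3 the rise with cercosporamide was 0.66 (adjusted p = 0.0527). In total RNA, NFE2L2 was at 38.5, 41.7, 60.6 and 37.7 CPM with DMSO, at 37.8, 33.0, 49.0 and 34.7 CPM with CID661578, and at 27.7, 30.8, 67.0 and 25.9 CPM with cercosporamide. Here 3 of 4 cercosporamide libraries lay below all 4 DMSO libraries and replicate 3 above them. The changes in total RNA were -0.31 (SE 0.212, adjusted p = 0.613) with cercosporamide, or -0.49 without replicate 3 (adjusted p = 0.483), and -0.19 (SE 0.211, adjusted p = 0.938) with CID661578.

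The ratio of the fractions separated cercosporamide from DMSO. The log2 polysome/total ratio of NFE2L2 was -0.21, -0.49, 0.19 and -0.08 with DMSO, 0.41, -0.04, 0.52 and 0.34 with CID661578, and 0.96, 0.44, 0.84 and 1.40 with cercosporamide. Each of the 4 cercosporamide plates was above each DMSO plate, and the CID661578 plates overlapped with both. With cercosporamide the ratio rose by 1.05 (SE 0.243, 2.06-fold, 95% interval 0.54 to 1.55, adjusted p = 0.00531). With CID661578 the estimate was 0.45 (SE 0.241, 95% interval -0.04 to 0.95, adjusted p = 0.588), above 0 on 4 of 4 plates. The ratio with CID661578 was lower than with cercosporamide by 0.59 (SE 0.243, adjusted p = 0.147), a difference that lost its call without any 1 of the replicates (adjusted p from 0.166 to 0.423) or without the shallow cercosporamide plate (adjusted p = 0.308), and under every other alternative run. The rise with cercosporamide kept its call without each replicate, at 0.87 to 1.15, and without the shallow plate, at 0.91, and it was 1.15 without replicate 3. Over the 16 alternatives run for it, this rise lay between 0.71 and 1.15, and 15 kept the call.

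**Figure D2:**
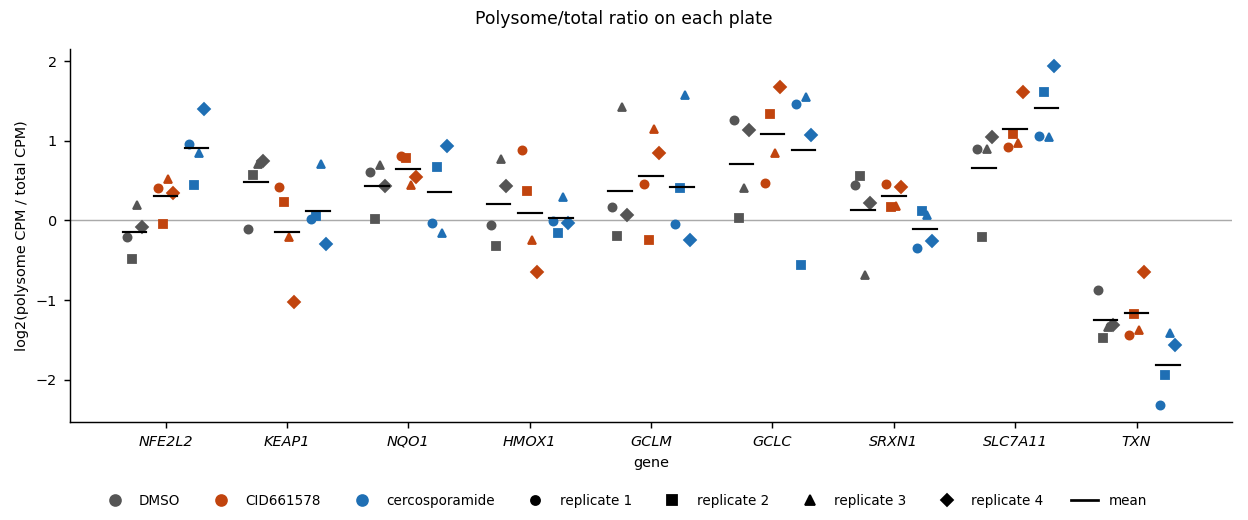
Log2 ratio of polysome to total CPM of each gene on each of the 12 plates, with 1 symbol per replicate and a line at the mean of 4. NFE2L2 was between 0.44 and 1.40 with cercosporamide and between -0.49 and 0.19 with DMSO, and TXN lay lowest, from -2.32 to -0.65.

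KEAP1 fell in polysome-associated RNA with CID661578. KEAP1 lies on chromosome 19 (10486125 to 10503356, minus strand). It was at 130.1, 157.1, 130.5 and 155.9 CPM with DMSO, at 96.4, 131.3, 70.8 and 68.5 CPM with CID661578, and at 152.6, 164.0, 78.2 and 89.4 CPM with cercosporamide. The CID661578 library was below the DMSO library on 4 of 4 pairs of plates, and only CID661578 replicate 2 reached the DMSO range. The fall was -0.71 with CID661578 (SE 0.192, 1.64-fold lower, adjusted p = 0.0471) and -0.32 with cercosporamide (SE 0.193, adjusted p = 0.269). In total RNA KEAP1 ranged from 47.7 to 157.5 CPM between libraries and was called in no comparison. The log2 polysome/total ratio was -0.11, 0.57, 0.71 and 0.74 with DMSO and 0.42, 0.24, -0.21 and -1.02 with CID661578, and the change of -0.62 (SE 0.286, adjusted p = 0.541) was not called. Without replicate 1 it was -1.005 and called (adjusted p = 0.122), and without replicate 4 it was -0.26 (adjusted p = 1.00).

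KEAP1 was also fitted with the GC trend of each library removed. This gene had the highest transcript GC content of the 9 genes, 60.2%. The slope of expression on GC content, in log2 per 10% of GC, was 0.08 to 0.34 in the DMSO polysome libraries and -0.24 to 0.31 in those with CID661578, where only replicate 2 was above 0. With the GC trend of each library removed, the fall was -0.43 (adjusted p = 0.286). The mean slope was 0.188 in polysome libraries with DMSO, -0.075 with CID661578 and -0.127 with cercosporamide. The correction can therefore also remove a change due to treatment, here, for NFE2L2 and for the genes below. With it, the polysome rise of NFE2L2 (42.1% GC) with cercosporamide was 0.49 (adjusted p = 0.0482). The NFE2L2 change with CID661578 was then 0.08 (adjusted p = 0.886). The part of the GC trend in the changes of KEAP1 and NFE2L2 was not tested. For KEAP1 in the fit without that correction, leaving out replicate 3 or 4 gave -0.68 and -0.54, with adjusted p of 0.209 and 0.229. The call was lost in each case.

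SLC7A11 had the largest rise of the 9 genes, and it rose with CID661578. It encodes xCT, the antiporter that brings in cystine for glutathione synthesis, and lies on chromosome 4 (138164097 to 138242349, minus strand). In polysome-associated RNA it was at 10.7, 9.85, 56.3 and 13.0 CPM with DMSO, at 55.9, 41.9, 63.8 and 50.3 CPM with CID661578, and at 15.5, 18.6, 65.8 and 10.6 CPM with cercosporamide. All 4 CID661578 libraries were high, whereas with DMSO and cercosporamide only replicate 3 was. The rise with CID661578 was 1.70 (SE 0.286, 3.24-fold, adjusted p = 0.00149), above 0 in 4 of 4 replicates, by 1.95 to 2.39 in replicates 1, 2 and 4 and by 0.18 in replicate 3. Without replicate 3 it was 2.1 (adjusted p = 0.000155). With cercosporamide the change was 0.41 (SE 0.286, 95% interval -0.18 to 1.01, adjusted p = 0.337).

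Total SLC7A11 RNA moved the same way with less certainty. It was at 5.71, 11.4, 30.3 and 6.27 CPM with DMSO, at 29.6, 19.8, 32.5 and 16.4 CPM with CID661578, and at 7.47, 6.06, 31.9 and 2.78 CPM with cercosporamide. Replicate 3 with DMSO and with cercosporamide again lay within the CID661578 range, and the other libraries of both groups lay below it. The estimate for CID661578 was 1.2 (SE 0.353), which was not called over all genes (adjusted p = 0.326) but was without replicate 3 (1.48, adjusted p = 0.101). CID661578 exceeded cercosporamide by 1.56 (SE 0.361, adjusted p = 0.108) in total and by 1.28 (SE 0.288, adjusted p = 0.00887) in polysome-associated RNA, at doses that differed. The former call was lost without replicate 1, 2 or 4 (adjusted p from 0.366 to 0.733) or without the shallow cercosporamide plate (adjusted p = 0.478). Relative to total RNA, polysome-associated SLC7A11 rose by 0.73 (SE 0.317, adjusted p = 0.120) with cercosporamide, where its total RNA changed by -0.36 (SE 0.354), or by -0.60 without replicate 3 (adjusted p = 0.555). The rise was not called without replicate 2 (0.35), replicate 4 (0.65) or the shallow cercosporamide plate (0.71), with adjusted p of 0.612, 0.254 and 0.179. Of 16 alternatives run for this ratio, only 3 kept the call, 12 lost it and 1 reversed the sign. Those that lost it included DESeq2, its size factors, both other filters and the fit of DMSO and cercosporamide only. With CID661578 the ratio changed by 0.48 (SE 0.299, adjusted p = 0.642). SLC7A11 had the lowest transcript GC content of the 9 genes, 35.4%, and with a GC correction the ratio change with cercosporamide was -0.18, while the polysome rise with CID661578 was 1.18 (adjusted p = 0.0401).

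HMOX1, which encodes the inducible heme oxygenase and lies on chromosome 22 (35381096 to 35394207, plus strand), also rose on polysomes with CID661578. It was at 27.7, 28.1, 82.2 and 34.5 CPM with DMSO, at 49.9, 117.0, 61.9 and 48.2 CPM with CID661578, and at 34.8, 41.0, 50.7 and 23.8 CPM with cercosporamide. CID661578 was above DMSO in replicates 1, 2 and 4 and below it in replicate 3, where the DMSO library was far above the other DMSO libraries. The rise was 0.73 (SE 0.266, 1.66-fold, adjusted p = 0.131). It was 1.10 without replicate 3 (adjusted p = 0.0763) and, with adjusted p of 0.292, 0.552 and 0.184, was not called at 0.70, 0.29 and 0.82 without replicates 1, 2 and 4. With cercosporamide the change was -0.14 (SE 0.269, adjusted p = 0.762), or 0.071 without replicate 3 (adjusted p = 0.901), and CID661578 exceeded cercosporamide by 0.87 (SE 0.268, adjusted p = 0.0440), which did not pass without replicate 2 (0.59, adjusted p = 0.228).

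In total RNA HMOX1 was at 28.7, 35.1, 48.4 and 25.4 CPM with DMSO, at 26.9, 90.3, 73.1 and 75.7 CPM with CID661578, and at 34.9, 45.8, 41.5 and 24.3 CPM with cercosporamide. Of the CID661578 libraries, 3 lay above all DMSO and cercosporamide libraries, and replicate 1 lay within their range. The estimate of 0.92 (SE 0.271) was not called (adjusted p = 0.331) and was called without replicate 1 (1.18, adjusted p = 0.1001). The polysome/total ratio of HMOX1 was called with neither compound.

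SLC7A11 and HMOX1 are also known targets of ATF4, the factor of the integrated stress response, and HMOX1 of heat shock. Of 8 genes listed for ATF4, 6 rose with CID661578 in total and the same 6 in polysome-associated RNA (ATF4, ATF3, DDIT3, TRIB3, CHAC1 and SESN2), where 0.448% and 10.1% of all genes were called, with list medians of 1.92 and 2.03 on the log2 scale against -0.01 over all genes in each fraction. With cercosporamide none rose in either fraction, and ATF3 fell on polysomes (-0.73, SE 0.332, adjusted p = 0.132). The list's summed level in total RNA was 261.8, 310.7, 1531 and 230.9 CPM with DMSO, 868, 1067, 1856 and 1091 CPM with CID661578, and 245, 265.4, 1314 and 260.6 CPM with cercosporamide. Replicate 3 was thus high in this list under all 3 treatments, as it was in SLC7A11. In polysome-associated RNA the 6 libraries with a summed level of 741.7 CPM or more had 41.9 CPM of SLC7A11 or more, and the other 6, at 238.1 CPM or less, had 18.6 CPM or less. This division was read from the same values. It also held for HMOX1 on polysomes (48.2 CPM or more against 41.0 or less) and SLC7A11 in total RNA (16.4 against 11.4). It did not hold for HMOX1 in total RNA. There CID661578 replicate 1, with a summed level of 868 CPM, had 26.9 CPM, and cercosporamide replicate 2, with 265.4 CPM, had 45.8 CPM. Of 5 heat shock genes, 3 fell with CID661578 in each fraction (HSPA1A, HSPA1B and HSPA8) and none rose, beside the same 0.448% and 10.1% of all genes called. With cercosporamide none was called in total RNA. On polysomes, where 32.2% of all genes were called, HSPH1 (0.84, SE 0.184, adjusted p = 0.00304) and HSPA8 (0.60, SE 0.234, adjusted p = 0.0787) rose with it. The summed level of the 5 genes in total RNA with DMSO was 5759, 6318, 1842 and 4581 CPM, lowest in replicate 3. The part of either list in the changes of SLC7A11 and HMOX1 was not tested.

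**Figure D3:**
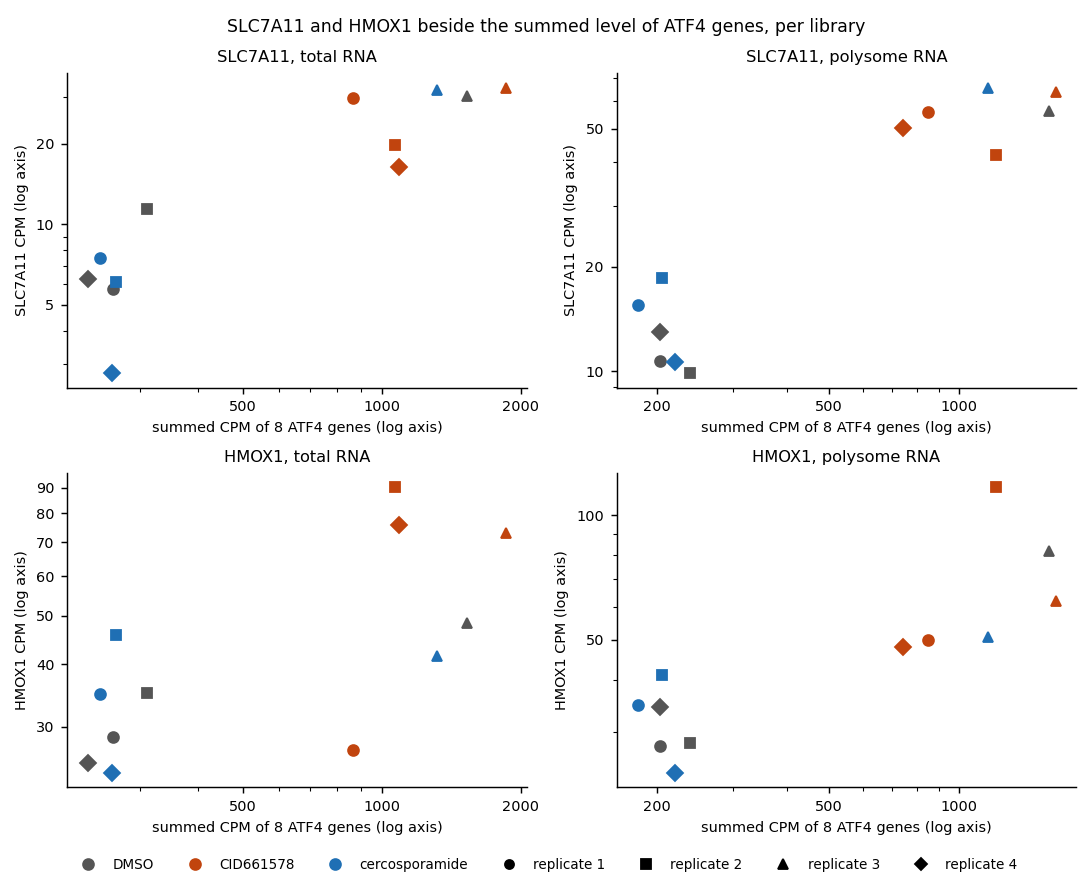
CPM of SLC7A11 and HMOX1 against the summed CPM of 8 ATF4 genes in each library, on log axes, with 1 colour per treatment and 1 symbol per replicate. In polysome-associated RNA the 4 CID661578 libraries and the replicate 3 libraries of DMSO and cercosporamide had summed levels of 741.7 CPM or more and 41.9 CPM of SLC7A11 or more. HMOX1 in total RNA did not divide this way, with CID661578 replicate 1 at 26.9 CPM.

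SRXN1 fell on polysomes with cercosporamide. It encodes sulfiredoxin, which repairs overoxidized peroxiredoxins, and lies on chromosome 20 (646615 to 653200, minus strand). In polysome-associated RNA it was at 12.5, 13.2, 12.9 and 11.7 CPM with DMSO, at 11.1, 9.12, 11.2 and 10.1 CPM with CID661578, and at 7.20, 4.08, 7.25 and 7.28 CPM with cercosporamide. The 3 treatments did not overlap, with DMSO highest and cercosporamide lowest. The fall with cercosporamide was -1.02 (SE 0.236, 2.04-fold lower, adjusted p = 0.00446), and it was called without each replicate (-0.78 to -1.16). With CID661578 the change was -0.28 (SE 0.218, 95% interval -0.74 to 0.17, adjusted p = 0.499), lower on 4 of 4 pairs of plates. CID661578 exceeded cercosporamide by 0.74 (SE 0.237, adjusted p = 0.0516), and this call was lost without replicate 2 (0.59, adjusted p = 0.262). In total RNA SRXN1 was at 9.13, 8.96, 20.6 and 10.1 CPM with DMSO, at 8.13, 8.13, 9.86 and 7.55 CPM with CID661578, and at 9.14, 3.76, 6.94 and 8.72 CPM with cercosporamide. DMSO replicate 3 was above all other total libraries, and the estimates of -0.73 (SE 0.317, adjusted p = 0.395) with cercosporamide and -0.47 (SE 0.310, adjusted p = 0.824) with CID661578 were not called. Without replicate 3 they were -0.44 (adjusted p = 0.646) and -0.23 (adjusted p = 0.984). The polysome/total ratio of SRXN1 was called with neither compound. With cercosporamide it changed by -0.23 (SE 0.367, adjusted p = 0.727), by -0.79, -0.45 and -0.48 in replicates 1, 2 and 4 and by 0.74 in replicate 3. The unstranded counts cannot separate SRXN1 from the overlapping LOC107985423, which had 59 reads over all libraries.

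TXN, on chromosome 9 (110243810 to 110256507, minus strand), fell on polysomes relative to total RNA with cercosporamide. Its total RNA was at 835.8, 1345, 632.1 and 672.9 CPM with DMSO, at 1087, 1335, 1108 and 814.5 CPM with CID661578, and at 1183, 1331, 1117 and 1287 CPM with cercosporamide. Only DMSO replicate 2 reached the cercosporamide range. The estimates for total RNA were 0.56 (SE 0.194, adjusted p = 0.300) with cercosporamide and 0.36 (SE 0.194, adjusted p = 0.751) with CID661578, and neither was called; the latter was 0.21 without replicate 3 (adjusted p = 0.955). In polysome-associated RNA TXN was at 458.3, 486.5, 250.1 and 271.3 CPM with DMSO, at 402.3, 594.1, 425.5 and 518.8 CPM with CID661578, and at 237.3, 348.8, 419.9 and 434.3 CPM with cercosporamide, and no difference was called. The log2 ratio was -0.87, -1.47, -1.34 and -1.31 with DMSO, -1.43, -1.17, -1.38 and -0.65 with CID661578, and -2.32, -1.93, -1.41 and -1.57 with cercosporamide.

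The ratio of TXN fell by 0.56 with cercosporamide (SE 0.259, adjusted p = 0.146), lower on 4 of 4 pairs of plates, by 1.45 in replicate 1 and by 0.07 in replicate 3. Without replicate 1 the change was -0.27 (adjusted p = 0.602), without replicate 2 it was -0.59 (adjusted p = 0.298), and without the shallow cercosporamide plate it was -0.57 (adjusted p = 0.209). With a GC correction it was -1.30 (adjusted p = 0.000342). CID661578 exceeded cercosporamide in this ratio by 0.65 (SE 0.259, adjusted p = 0.137). That call was lost without replicate 1, 2 or 4 (adjusted p from 0.239 to 0.391) or without the shallow plate (adjusted p = 0.214). Reads of TXN copies are counted at each alignment, and 4 of 7 TXN pseudogenes in the table had reads, together 1.98% to 5.87% of the TXN count in a library.

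NQO1, GCLM and GCLC were called in no comparison with all replicates in the edgeR fit. GCLC and GCLM encode the catalytic and the modifier subunit of glutamate-cysteine ligase, the first enzyme of glutathione synthesis. NQO1 lies on chromosome 16 (69709401 to 69726560), GCLM on chromosome 1 (93885199 to 93909430) and GCLC on chromosome 6 (53497341 to 53545101), all on the minus strand. NQO1 was at 321.0, 320.7, 353.7 and 286.2 CPM in total RNA with DMSO, at 240.9, 222.3, 387.2 and 306.6 CPM with CID661578, and at 334.3, 284.9, 501.7 and 331.9 CPM with cercosporamide. On polysomes it was at 488.1, 323.6, 571.0 and 387.5 CPM with DMSO, at 421.5, 384.2, 526.7 and 446.7 CPM with CID661578, and at 327.0, 453.0, 449.7 and 634.2 CPM with cercosporamide. The treatments overlapped in both fractions, and replicate 3 was highest in 5 of the 6 groups. GCLM was between 3.47 and 9.65 CPM in total and between 5.96 and 12.2 CPM in polysome-associated RNA, and GCLC between 2.70 and 9.79 and between 4.98 and 14.2 CPM, with overlapping treatments. The 18 estimates for these 3 genes against DMSO lay between -0.54 (GCLC in total RNA with cercosporamide) and 0.33 (the GCLC ratio with CID661578), with 95% intervals that reached from -1.35 to 1.22 and adjusted p of 0.226 or more. On polysomes with cercosporamide, GCLC passed without replicate 3, and GCLC and GCLM passed with a GC correction.

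**Figure D4:**
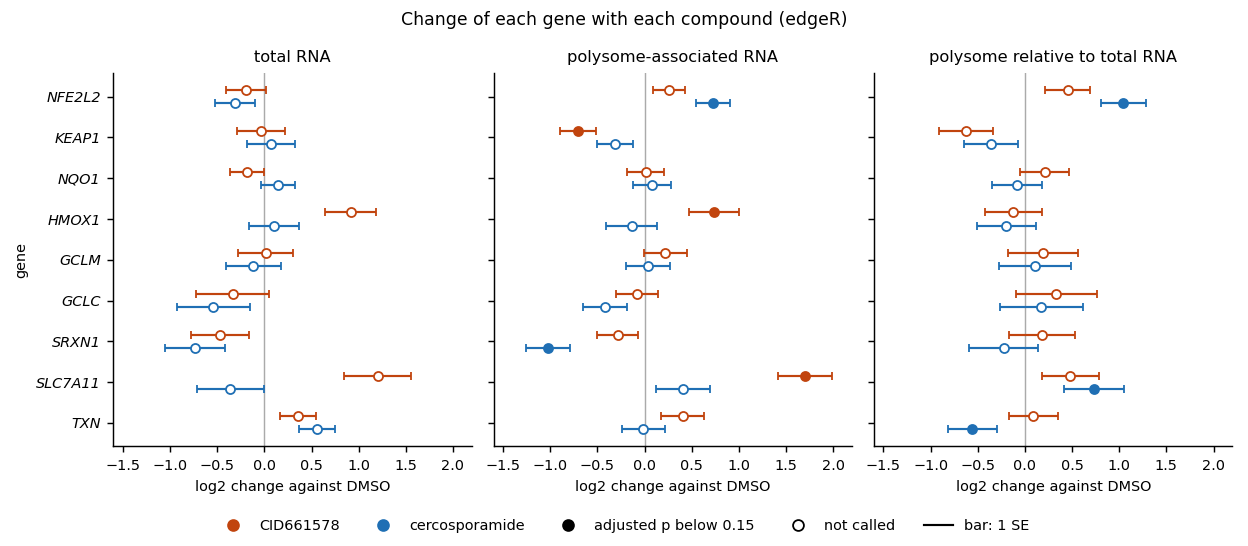
Log2 change against DMSO of each gene with CID661578 and cercosporamide in total RNA, in polysome-associated RNA and in polysome relative to total RNA, with bars of 1 SE and filled points where the adjusted p was below 0.15. No point is filled in total RNA, 5 are filled in polysome-associated RNA (KEAP1, HMOX1 and SLC7A11 with CID661578, NFE2L2 and SRXN1 with cercosporamide), and 3 in the ratio with cercosporamide (NFE2L2, SLC7A11 and TXN).

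Counted over the 9 genes, calls at an adjusted p below 0.15 were set against all genes tested. In total RNA none was called with CID661578 (0.448% of all genes were; 2 of the 9 had an unadjusted p below 0.05, and 2 were called with DESeq2) and none with cercosporamide (0.381% of all genes; 2 at an unadjusted p below 0.05, 1 with DESeq2), and 1 was called between the compounds (0.572%). On polysomes 2 rose and 1 fell with CID661578, where 10.1% of all genes were called, and 1 rose and 1 fell with cercosporamide, where 32.2% were. Between the compounds 3 were higher and 1 lower with CID661578 (22.3% of all genes called), the last being NFE2L2 (-0.47, SE 0.175, adjusted p = 0.0957), which did not pass without replicate 2, 3 or 4 (adjusted p from 0.237 to 0.324) or the shallow cercosporamide plate (adjusted p = 0.172). In the ratio, where a change of more than 1.2-fold was also required, none of the 9 was called with CID661578 (0.207% of all genes; KEAP1 alone had an unadjusted p below 0.05, and DESeq2 called none), 2 rose and 1 fell with cercosporamide (28.4%), and 1 was higher and 1 lower between the compounds (15.5%). Median changes of the 9 genes against DMSO were -0.04 and -0.12 in total, 0.22 and -0.01 in polysome-associated RNA and 0.19 and -0.08 in the ratio, with CID661578 and cercosporamide in turn, beside all-gene medians of -0.01 to 0.03.

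The polysome calls depend on the replicate block, and replicate 3 held the highest level of NFE2L2 and of SLC7A11 in each of the 6 groups. With treatment as the only term, none of the 9 was called on polysomes with CID661578 (SLC7A11 1.24, adjusted p = 0.468). With cercosporamide SRXN1 alone was (-0.99, adjusted p = 0.0276). The ratio fit with no replicate block still held a term for each plate. In it NFE2L2 remained the only gene called with cercosporamide (1.04, adjusted p = 0.0112). That call was lost with no plate terms as well (adjusted p = 0.269).

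A wider list of 47 NRF2 pathway genes had 39 genes that could be tested. The other 8, among them the aldo-keto reductases AKR1B10, AKR1C1, AKR1C2 and AKR1C3, had a count of 0 in at least 1 library. With CID661578 none was called in total RNA (4 at an unadjusted p below 0.05) or in the ratio (1 below 0.05), and on polysomes 2 rose and 1 fell, which is 7.69% of the 39 beside 10.1% of all genes. NFE2L3, a relative of NFE2L2, rose by 0.70 (SE 0.210, adjusted p = 0.0708), from 26.0 ± 2.06 to 42.5 ± 6.32 CPM (SD, n = 4). FTH1, the heavy chain of the iron store ferritin, fell by 0.81 (SE 0.184, adjusted p = 0.0165), from 86.9 ± 36.63 to 47.8 ± 13.3 CPM. The other rise was that of MAFF, a small MAF protein, which is named here after its values were seen, and which was also called in total RNA with no filter, with a GC correction, with DESeq2 and in the fit of DMSO and CID661578 only.

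With cercosporamide none of the 39 was called in total RNA and none had an unadjusted p below 0.05. On polysomes 8 rose and 3 fell, which is 28.2% of the list beside 32.2% of all genes, and relative to total RNA 7 rose and 2 fell, which is 23.1% beside 28.4%. The list's share was thus no higher than that of all genes in either. NFE2L3 rose by 1.58 (SE 0.215, adjusted p = 4.23e-05) on polysomes, from 26.0 ± 2.06 to 81.1 ± 30.0 CPM, and by 1.198 (SE 0.290) in the ratio. CUL3, the scaffold of the ligase that KEAP1 serves, rose by 0.96 (SE 0.220, adjusted p = 0.00434) on polysomes. SLC3A2, the heavy chain that partners SLC7A11, rose by 1.16 (SE 0.282, adjusted p = 0.00706) in the ratio. GPX4, the glutathione peroxidase that reduces lipid peroxides, fell by 0.97 (SE 0.158, adjusted p = 0.000216) on polysomes and changed by -1.42 (SE 0.251) in the ratio. NQO2, another quinone reductase, fell by 0.86 (SE 0.199) on polysomes and by 1.00 (SE 0.258) in the ratio, and FTH1 was the third gene that fell on polysomes. The list's medians with cercosporamide were -0.16 on polysomes and -0.08 in the ratio. The list thus held genes that moved both ways. Between the compounds, 3 of the 39 were higher (MAFF, GPX4 and RBX1) and 4 lower (CUL3, NFE2L3, UGDH and IDH1) on polysomes with CID661578, or 17.9% beside 22.3% of all genes, all named after their values were seen.

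Over the 24 libraries, with the mean of each fraction subtracted, the levels of HMOX1 and SLC7A11 ran together most among the pairs of the 9 genes (Pearson r = 0.67, and 0.64 in the 18 libraries without replicate 3). NFE2L2 correlated with SLC7A11 at 0.61 and with NQO1 at 0.54, values that fell to 0.22 and 0.30 without replicate 3. KEAP1 ran against NFE2L2 (-0.66, and -0.45 without replicate 3), SLC7A11 (-0.64 and -0.48) and NQO1 (-0.47 and -0.17). These levels were not corrected for GC content, and the GC slope of single libraries ran from -0.429 to 0.502 in log2 per 10% of GC. Transcript GC content was 60.2% for KEAP1, 42.1% for NFE2L2, 35.4% for SLC7A11 and 43.8% for NQO1. The part of the GC trend in these correlations was not tested. GCLM and GCLC correlated at 0.20 and 0.28. Among tested genes whose average log2 CPM was 3 or more, the levels most like those of NFE2L2 were AMIGO2 (0.92), GPX8 (0.88) and RND3 (0.88), which without replicate 3 were at 0.78, 0.65 and 0.68. Those most like HMOX1 were PTPRH (0.93), GDF15 (0.89) and PCK2 (0.87), at 0.93, 0.93 and 0.87 without it. These values describe libraries that share plates and treatments.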

How the data were processed

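Libraries were prepared from total cytosolic and polysome-associated RNA of each plate by Smart-seq2. According to the methods, the authors filtered out rRNA with BBDuk, used HISAT2 against hg38 and assigned reads to RefSeq genes by featureCounts of RSubread at its defaults, so that strand is ignored and a multi-mapping read counts once per alignment. The deposited counts are the raw output for 54583 genes and 24 libraries.

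As in the study, a gene needed reads in every library, which 12058 genes had. Counts were scaled by TMM over all libraries and tested by quasi-likelihood in edgeR 4.0.16 (R 4.3.3), with Benjamini-Hochberg adjustment over all genes tested. Each fraction was fitted on 12 libraries with replicate and treatment, and the ratio on 24 libraries with plate, replicate in each fraction and treatment in the polysome fraction. Genes were called at an adjusted p below 0.15, and for the ratio also above 1.2-fold, the thresholds of the methods. SEs were taken from the log2 change and its F statistic. The replicate number is the batch in the methods. As a check of the pairing, deviations from the group means were correlated between each treated and the same-numbered DMSO library, and r was above 0.1 in 13 of 16 pairs (-0.0155 to 0.551). The others were cercosporamide replicates 1 (-0.0155) and 4 (0.0547) on polysomes and CID661578 replicate 1 (0.082) in total RNA. The p-values rest on the spread left after the terms of each fit, replicate included, with 6 residual degrees of freedom. That spread was moderated by a prior from all genes tested, worth 12.37 to 18.25 degrees of freedom. CPM are counts scaled to a common normalized library size, and RPKM divide them by the length of the MANE transcript in kilobases.

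Coordinates and promoter sequences are from RefSeq GRCh38.p14 and transcript lengths and GC content from GENCODE, available for 96% of the tested genes. The fits were also run on simulated counts with known changes in the CID661578 polysome libraries. These counts had the same spread for all genes and no replicate or plate effect. The run therefore does not bear on the replicate block or on replicate 3. Depth, from 1592459 to 12184749 reads, limits the genes with few counts, and intervals on counts cover counting error only. Of the wider pathway list, at most the 2 called genes with the largest rise and the 2 with the largest fall in each comparison against DMSO are named, with the same sign in all 4 replicates and an average log2 CPM of at least 3. Members and lists were chosen with earlier results of these data known. Alternatives were no replicate block, no plate terms, each replicate left out, DESeq2 1.42.0 or its size factors, TMM within fractions, other filters, fits of 1 compound with DMSO, a GC correction, an analysis of partial variance with limma 3.58.1 and an adjusted p of 0.05. The polysome library of cercosporamide replicate 4 was the shallowest, and leaving out its plate was added after seeing the data.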

Additional observations from a re-analysis of the deposited data

Results flagged for a closer look

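Of 81 groups of 4 values tested for the 9 genes, 11 had 1 value far from the other 3. The limit used flags about 1 in 20 groups of independent, normally distributed values. These groups share plates, the ratios reuse the CPM, and the CPM were not put on a log scale. The count of 11 therefore cannot be set against that rate. Of the 11, 8 were from replicate 3. NFE2L2 was high in replicate 3 on polysomes with DMSO (69.2 CPM) and in total RNA with cercosporamide (67.0 CPM). SLC7A11 was high there on polysomes with DMSO (56.3 CPM) and with cercosporamide in total (31.9 CPM) and polysome-associated RNA (65.8 CPM). HMOX1 on polysomes (82.2 CPM) and SRXN1 in total RNA (20.6 CPM) were high, and GCLM in total RNA (3.47 CPM) was low, in DMSO replicate 3. The other 3 were from replicate 2. GCLC was high in total RNA with cercosporamide (7.32 CPM), SRXN1 was low on polysomes with cercosporamide (4.08 CPM), and the log2 polysome/total ratio of SLC7A11 was low with DMSO (-0.21). What sets replicate 3 apart was not tested.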

How the results depend on the processing

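Over 36 log2 changes of single genes and 513 alternative values, 413 kept direction and call, 78 lost the call, 17 gained one and 5 reversed. The SLC7A11 rise on polysomes with CID661578 lost its call with no replicate block alone, and the NFE2L2 ratio rise with cercosporamide with no replicate block and no plate terms alone. A GC correction reversed SLC7A11 with cercosporamide on polysomes (-0.32) and in the ratio (-0.18) and HMOX1 with cercosporamide on polysomes (0.15), where leaving out 1 replicate gave -0.31 to 0.071. The GCLC ratio with CID661578 was -0.11 in an analysis of partial variance. The causes were not tested.

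With no replicate block, calls among the 9 genes were 0 with CID661578 and 1 with cercosporamide on polysomes, 1 with cercosporamide in the ratio, and 0 between the compounds in each of the 3 fits. The replicate block changed no count against DMSO in total RNA. Without plate terms as well, the ratio gave 0 with cercosporamide and 0 between the compounds. In total RNA with CID661578, no filter, a GC correction and DESeq2 gave 2 calls (HMOX1 and SLC7A11) and the fit of DMSO and the compound only gave 1. With cercosporamide a GC correction and DESeq2 gave 1 (TXN), and between the compounds no filter, a GC correction and DESeq2 gave 2. On polysomes with cercosporamide a GC correction gave 5 (GCLC, GCLM, NFE2L2, SRXN1 and TXN). In the ratio with cercosporamide the fit of DMSO and the compound only gave 1, and between the compounds DESeq2, its size factors, TMM within fractions, filterByExpr, no filter, a GC correction and an analysis of partial variance each gave 1. An adjusted p of 0.05 left 0 in total RNA between the compounds, 2 on polysomes between the compounds, 1 in the ratio with cercosporamide and 0 in the ratio between the compounds.

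Leaving out 1 replicate, or the plate of cercosporamide replicate 4 alone (chosen after seeing the data), gave 0 to 1 calls in total RNA with CID661578 and between the compounds, 1 to 3 on polysomes with CID661578 and 1 to 4 between the compounds, 0 to 1 in the ratio with CID661578 and between the compounds, and 1 to 3 with cercosporamide. Depth limits GCLM, GCLC, SRXN1 and SLC7A11, which had 9 to 16 reads in the shallow library. Of the 39 wider pathway genes, 0 to 6 were called on polysomes with CID661578 over the alternatives, and 4 to 14 on polysomes and 4 to 12 in the ratio with cercosporamide; the lowest counts came with no replicate block, in the ratio with no plate terms as well. The analysis of partial variance followed the published outline of anota2seq, not the package.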
